A study of Caenorhabditis elegans with 2 samples.

Results

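The regions described here are candidate LIN-35 binding regions on the arms of autosomes II, III, IV and V of *Caenorhabditis elegans*, compared with those in the centres of the same chromosomes. A region was placed by its summit, in an arm when the summit fell in the first or last 33.3% of the chromosome length and in the centre when it fell between them. By this rule 12621 of the 30000 candidate regions called on the pooled libraries lay in arms and 7073 in centres. The rule used position alone, so signal, the authors' irreproducible discovery rate (IDR) call, gene context and sequence were all free to differ. Of the 19694 candidate regions of these chromosomes, 1.45% passed the IDR threshold, which is the background for the counts below (1.32% over all chromosomes).

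ChIP-seq of LIN-35 was done in whole young adult worms of mixed sex, strain YL402, which carries the *unc-119* mutation ed3 on chromosome III and the integrated transgene vrIs56. The transgene expresses LIN-35 tagged with GFP and FLAG, with the *lin-35* 3′ UTR, from the *pie-1* promoter, which is active in the germline, together with an *unc-119* rescue copy. There was 1 group with 2 libraries, biological replicates 2 and 3, and no untagged or untreated group was compared here. The replicate 2 list held 20291 candidate regions and the replicate 3 list 30000. The pooled list also held 30000, and whether this was a limit set on list length is unknown from these lists. Shares of candidate regions depend on list length. Read depth is unknown from these lists, so intervals cover only the number of regions or genes counted.

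LIN-35 is the worm relative of the retinoblastoma protein and works in the DREAM complex, which contacts DNA through an E2F and DP dimer and through LIN-54, a protein that recognises the CHR element of cell cycle promoters. Worm autosomes have no single centromere. Their arms recombine often, are rich in repeats and in large young gene families, and carry much of the heterochromatin marked on histone H3 lysine 9, whereas the centres hold a larger part of the conserved genes used in most cells and in the germline.

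The strongest thresholded peak of each arm but the right arm of II is shown by 30 bases of the reference strand around the motif nearest its summit, so that the DNA under the highest signal of these arms can be read (RefSeq sequence, WBcel235, equal to ce11). Capitals mark an E2F motif, which was TTCCCGC, its variant TTCGCGC, or likewise TTGCCGC and the variant TTGGCGC. Where no E2F motif lay within 100 bp of the summit, capitals mark a CHR motif, TTCGAA or the variant TTTGAA. Both motifs were searched on both strands.
*dnj-9*, left arm, chrII:4851833-4851862, E2F: ttcagtgcgggTTGGCGCaattgccgatca
*rpl-3*, left arm, chrIII:3867507-3867536, CHR: aaagaaatcgaaTTCAAAcaaccgcgcttg
*tasp-1*, right arm, chrIII:10759265-10759294, E2F: tgtgacacagcGCGCCAActtgaaaatggc
*pcn-1*, left arm, chrIV:4049643-4049672, E2F: tcgaatgaaacTTCGCGCctcaatttaccg
*eelo-2*, right arm, chrIV:17249835-17249864, CHR: tcagaaactcgaTTCAAActgcctccaaaa
*knl-3*, left arm, chrV:1868796-1868825, E2F: cagtgacggggTTGGCGCggcaaattaacc
*F57A10.2*, right arm, chrV:15766424-15766453, CHR: tattggagggaaTTCAAAtatgtttttgga
For comparison, the strongest peaks of the centres of II, III and V had these sites, and that of IV, near *usp-4*, had neither motif within 100 bp.
*T21B10.3*, centre, chrII:8933890-8933919, E2F: aaactaccatcGCGCGAAcgcgtacgcgcc
*rpl-35*, centre, chrIII:7854629-7854658, CHR: gaaaaacttcctTTCAAAccgccgcgctca
*sec-61.G*, centre, chrV:10897393-10897422, E2F: cattgccattgGCGGCAAttcaaataagaa

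The arms had the known composition of worm chromosome arms. Protein-coding gene starts numbered 198 per Mb in arms and 242 per Mb in centres. Lower-case bases, which mark masked repeats in the RefSeq sequence, made up 40.4% of the arms and 28.1% of the centres. Of 1242 chemoreceptor genes on these chromosomes 75.7% started in arms, as did 97.6% of 289 F-box genes and 82.6% of 201 C-type lectin genes, beside 62.2% of all 14364 protein-coding genes. Candidate regions were thinner in arms, at 281 per Mb against 314 per Mb.

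LIN-35 peaks were about as frequent among arm regions as among centre regions. A total of 179 of 12621 arm regions passed the IDR threshold (1.42%, exact Clopper-Pearson 95% interval 1.22% to 1.64%), and 106 of 7073 centre regions did (1.5%, interval 1.23% to 1.81%). The difference of -0.0804 percentage points had a Newcombe 95% interval of -0.446 to 0.26, which includes 0 (two-sided Fisher's exact test, p = 0.664, Benjamini-Hochberg adjusted p over 14 tests = 0.774). Per unit of sequence the arms held 3.98 peaks per Mb and the centres 4.71. The libraries alone gave small differences of opposite sign. Among the 396 highest-ranked regions of replicate 2, the shares were 1.95% of arm and 2.19% of centre candidates (exact p = 0.32), and in replicate 3 they were 1.52% and 1.40% (exact p = 0.535).

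The signal of candidate regions was also nearly level between arms and centres. Signal is the authors' enrichment value, of unstated scale, so values were compared only within a list. In the pooled list the median was 8.99 in arms and 9.07 in centres, the 90th percentile was 14.8 and 15.2, and the 99th 36.1 and 38.9. In replicate 2 the arm median was below the centre median on each of the 4 chromosomes, with a mean difference of -0.05 on the log2 scale (exact sign-flip permutation over chromosomes, which gave the smallest p that 4 chromosomes allow and cannot reach 0.05). In replicate 3 the same difference was 0.00 (exact p = 0.625). The 179 arm peaks had a median signal of 44.3 with quartiles of 35.6 and 61.6, and the 106 centre peaks had 46.0 with quartiles of 36.7 and 63.3. Peak signals ran from 30.1 to 279 in arms and from 30.2 to 191 in centres, and only the *rpl-3* and *cdc-48.1* peaks of the arms lay above the highest centre peak.

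**Figure D1:**
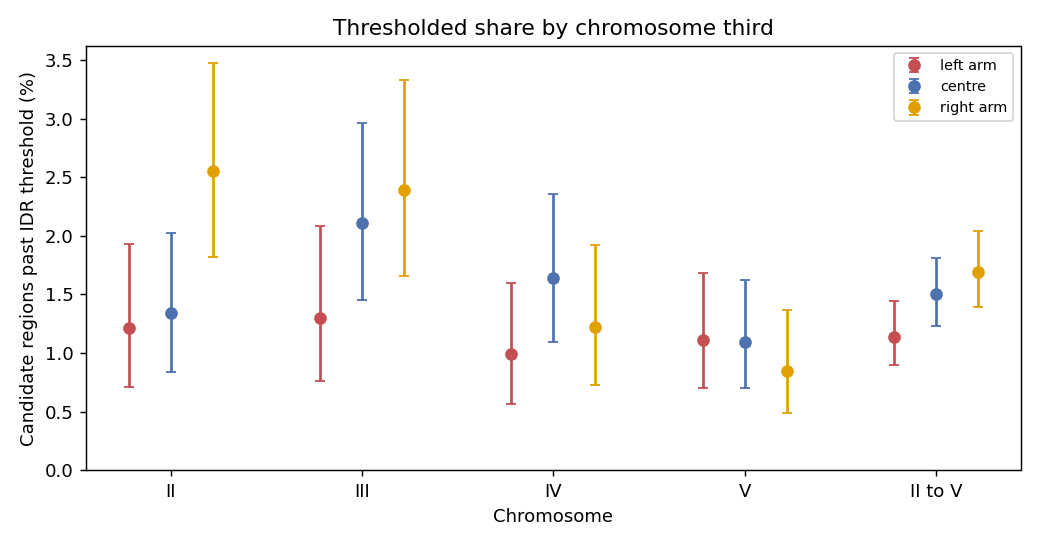
Share of candidate regions that passed the IDR threshold in the left arm, centre and right arm of each autosome, with exact 95% intervals. The right arms of II and III have the highest shares, 2.55% and 2.39%, and the right arm of V the lowest, 0.847%.

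The shares of the 8 arms ranged more widely than the arm and centre averages. The right arm of II had 39 peaks among 1530 regions (2.55%) and the right arm of III had 34 among 1421 (2.39%). The other 6 arms lay between 0.847% in the right arm of V, with 16 of 1888, and 1.30% in the left arm of III, with 17 of 1304. Left arms together had 72 of 6304 (1.14%) and right arms 107 of 6317 (1.69%; Fisher's exact p = 0.0103, adjusted p = 0.0721), a difference that did not pass the adjusted threshold. Without adjustment it passed within II (exact p = 0.00977), within III (exact p = 0.0466) and with the outer 25% at each end, where the shares were 0.877% and 1.63% (exact p = 0.00129, not adjusted). On V it had the opposite sign, with 1.11% in the left arm and 0.847% in the right (exact p = 0.42). The right arm of III also holds the endogenous copies of the transgene parts *unc-119* and *pie-1*, with 7 peaks within 3000 bp of them, and none lay in a centre. Without these peaks the right arms had 1.59% against 1.14% in the left (exact p = 0.0317). Over the chromosomes the mean arm minus centre difference was -0.0779 points (exact sign-flip permutation, two-sided p = 0.75). Whether that contrast differed between chromosomes was tested by the Breslow-Day test, a large-sample rather than exact test, and did not pass (p = 0.191, adjusted p = 0.597). Arm and centre shares were 1.91% and 1.34% on II, 1.87% and 2.11% on III, 1.10% and 1.64% on IV, and 0.983% and 1.09% on V. Arms were thus above the centre on II and below it on the other 3 chromosomes, none of them past the test alone.

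**Figure D2:**
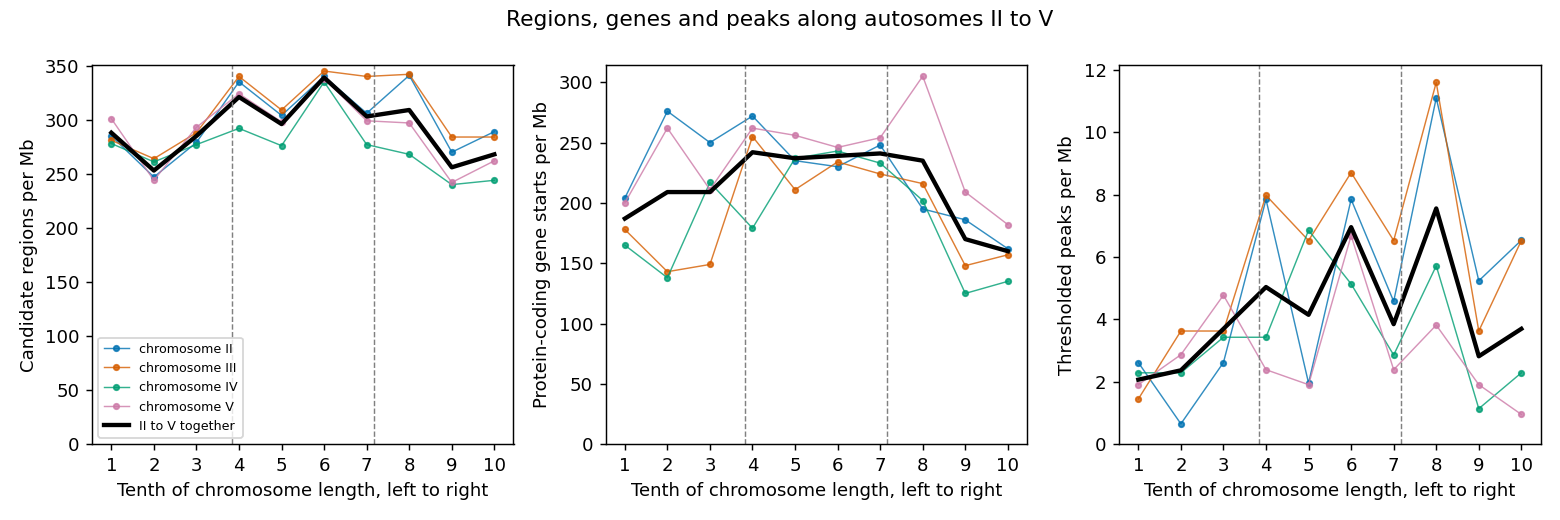
Candidate regions, protein-coding gene starts and thresholded peaks per Mb in 10 bins of equal length along the chromosome, for each autosome (thin lines) and for II to V together (thick line); dashed lines mark the borders of the centre. Peaks per Mb run from 2.07 in the first bin to 7.56 in the eighth, which lies in the inner right arm.

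Peaks were unevenly placed within the arms. In 10 bins of equal length, counted from the left end, peaks per Mb were 2.07, 2.37 and 3.70 in the first 3 bins and 7.56, 2.82 and 3.70 in the last 3, with 3.85 to 6.96 between. The eighth bin, in the inner right arm, had 51 peaks among 2083 regions (2.45%), the highest share of any bin, of which 17 were on II, 16 on III, 10 on IV and 8 on V. The ninth bin had 19 among 1729 (1.10%).

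This placement made the comparison depend on where arms were taken to begin. With the outer 20% at each end set against the middle 60%, the thresholded share was 1.03% (74 of 7187) in the outer parts and 1.69% (211 of 12507) in the rest (two-sided Fisher's exact test, p = 1.5e-04, not adjusted). With the outer 25% at each end the shares were 1.25% and 1.61% (exact p = 0.0361). The arms as defined above therefore hold an outer part at 1.03% and an inner part, between the outer 20% and the centre, at 1.93% (105 of 5434, interval 1.58% to 2.33%), with the centre at 1.5%. The outer part was below the rest, which includes the inner arms, on all 4 chromosomes. The shares were 1.38% against 1.89% on II, 1.37% against 2.29% on III, 0.782% against 1.59% on IV and 0.729% against 1.19% on V. The difference passed alone on III (exact p = 0.038) and IV (exact p = 0.0169). Against the centre alone the outer part had 1.03% and the centre 1.5% (exact p = 0.0132, not adjusted). The order of zones was not the same on every chromosome. On II the outer arm (1.38%) was just above the centre (1.34%), and on IV the centre (1.64%) was above the inner arm (1.53%). The libraries differed in how far they showed the lower share of the outer part against the rest. In replicate 2 alone the outer parts had 1.55% and the rest 2.29% (exact p = 0.00383), and in replicate 3 alone 1.30% and 1.58%, which did not pass the exact test. Repeat content also differed by zone, with lower-case bases in 37.1% of the 201 bp around outer-arm summits on average, 29.8% in inner arms and 25% in centres. For II to V together the thresholded share was in another order, highest in inner arms. Peaks had more lower-case bases than other candidates, with means of 40.8% against 33.8% in arms and 34.5% against 24.8% in centres. The part of repeats in the result was not tested.

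**Figure D3:**
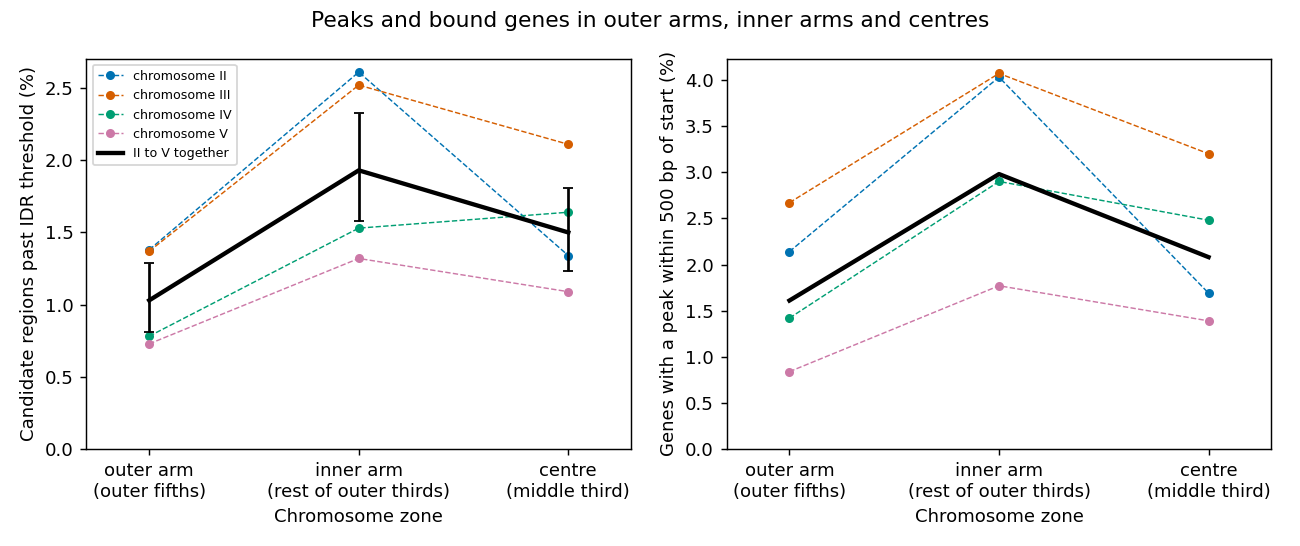
Left, share of candidate regions past the IDR threshold in outer arms, inner arms and centres (exact 95% intervals for II to V together); right, share of protein-coding genes with a peak summit within 500 bp of the start. In both panels the outer arm is lowest for II to V together, at 1.03% of regions and 1.61% of genes, and the inner arm highest, at 1.93% and 2.98%.

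Fewer arm than centre candidates lay near a gene start. Of the arm regions 3003 (23.8%) had a summit within 500 bp of a protein-coding gene start, compared with 1914 centre regions (27.1%), a difference of -3.27 percentage points (Newcombe 95% interval -4.55 to -2; Fisher's exact p = 4.1e-07, adjusted p = 5.8e-06). This was the only one of the 14 tests to pass after adjustment, and both libraries gave it, with 26.1% and 28.2% in replicate 2 and 22.6% and 26.8% in replicate 3. The test did not account for gene starts being thinner in arms, at 198 per Mb against 242 per Mb. How much of the difference comes from this lower density was not tested. Among peaks the shares were 155 of 179 in arms (86.6%) and 89 of 106 in centres (84.0%), with an interval of the difference from -5.53 to 11.8 points (exact p = 0.601). Among regions near a start, 5.16% of arm regions and 4.65% of centre regions were peaks (exact p = 0.459), beside 4.96% of all 4917 such regions. Among regions away from starts the shares were 0.25% and 0.33% (exact p = 0.413).

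Where summits fell relative to genes was similar for the peaks of both parts. Intergenic summits made up 147 of the 179 arm peaks (82.1%) and 89 of the 106 centre peaks (84.0%). Introns held 14 arm peaks and 8 centre peaks. Coding exons held 9 arm peaks, of which 3 were at the transgene parts, and 1 centre peak. Of the 155 arm peaks near a start 145 were upstream of it (93.5%), as were 80 of 89 in centres (89.9%), and the median distances to the start were 168 and 189 bp. Starts on both strands, which make a shared promoter, lay within 500 bp of 44 of the 155 arm peaks (28.4%) and of 24 of the 89 centre peaks (27%; exact p = 0.883). Candidate regions that were not peaks had a different make-up in the arms, with 31.1% in introns and 26.7% in coding exons, compared with 26.0% and 32.0% in centres.

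**Figure D4:**
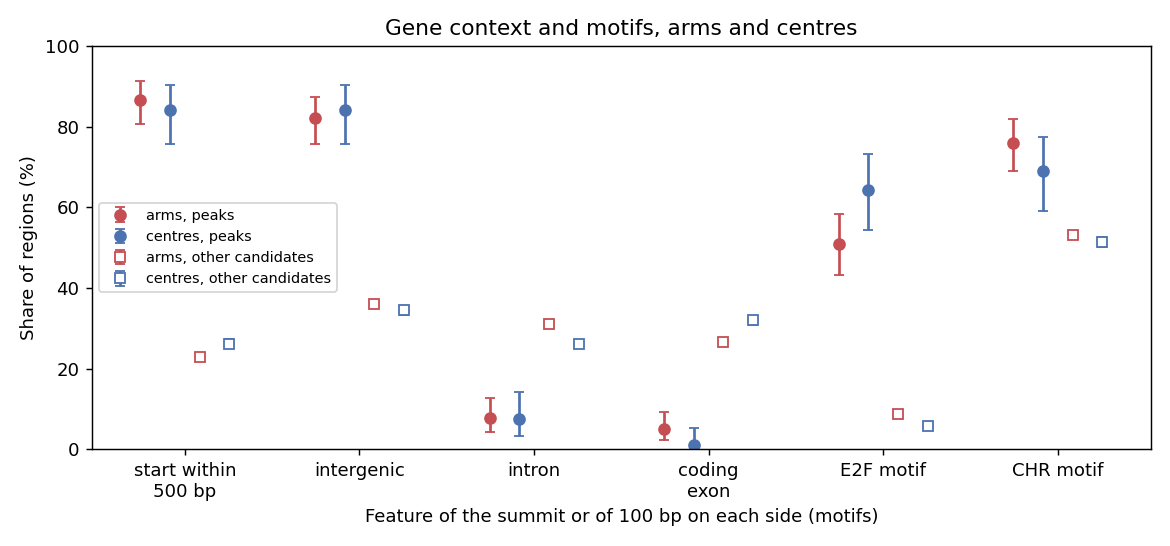
Shares of peaks (filled circles) and of other candidate regions (open squares) in arms and centres with each feature, with exact 95% intervals, some smaller than the symbols. Peaks of arms and centres lie close together in gene context, and the E2F motif is at 50.8% of arm peaks and 64.2% of centre peaks.

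The E2F motif was less frequent at arm peaks, but the difference did not pass after adjustment. The motif lay within 100 bp of 91 of 179 arm summits (50.8%) and of 68 of 106 centre summits (64.2%; interval of the difference -24.5 to -1.39 points; Fisher's exact p = 0.0358, adjusted p = 0.167). Arms were lower on each chromosome, with 53.6% and 68.2% on II, 47.1% and 68.8% on III, 44.1% and 53.6% on IV, and 57.9% and 66.7% on V. Among peaks near a start the shares were 53.5% and 61.8% (exact p = 0.229), and without the 7 peaks at transgene parts 52.3% and 64.2% (exact p = 0.0617). The highest-ranked regions of either library alone were also lower in arms, with 48.5% and 54.8% in replicate 2 (exact p = 0.331) and 38.9% and 46.9% in replicate 3 (exact p = 0.207). Among other candidate regions the motif was at 8.60% in arms and 5.76% in centres. The CHR motif was at 136 arm peaks (76.0%) and 73 centre peaks (68.9%; exact p = 0.213), beside 53.0% and 51.3% of other candidates. At least 1 of the motifs was present at 86.0% of arm peaks and 89.6% of centre peaks.

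The arm peaks of highest signal were those near *rpl-3*, *cdc-48.1* and *tasp-1*. The *rpl-3* peak, upstream of a large ribosomal subunit protein gene (left arm of III, 3867451 to 3867678), had a pooled signal of 278.8, with 151 in replicate 2 and 127 in replicate 3. The *cdc-48.1* peak, upstream of a p97 segregase gene (right arm of II), had 254.5, with 111 and 140. The *tasp-1* peak, at a threonine aspartase homologue (right arm of III, 10759159 to 10759343), had 165.1, with 89.4 and 70.4. These peaks ranked 24 or higher in both libraries. The *knl-3* peak, nearest to a kinetochore protein gene (left arm of V, 1868723 to 1868876), had 126.9, with library signals of 66.9 and 59.8. Its summit was upstream of the *knl-3* start, in a 5′ UTR annotated to another gene. The *ddp-1* peak, at a mitochondrial import factor gene (left arm of III), had 125.2, with 65.8 and 47.6. The remaining 5 of the first 10 were near *T19H12.2* (118.3), *F43G6.16* (106.1), *eelo-2* (104.8), the glycogen phosphorylase gene *pygl-1* (104.8) and *Y53F4B.11* (103.7). The library ranks of *F43G6.16* were 21 and 150 (replicate 2 first), and those of *eelo-2* were 42 and 44.

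In the centres the strongest peaks had lower signal than the first pair of arm peaks. The *rpl-35* peak on III, upstream of another ribosomal protein gene, had 190.9, with 93.2 in replicate 2 and 97.4 in replicate 3. The *sec-61.G* peak on V, at a gene for a subunit of the Sec61 protein channel, had 129.1, with 63.0 and 67.8. On IV the *usp-4* peak, near a gene annotated as a ubiquitin hydrolase, had 110.9, with 68.9 and 41.0, and on II the *T21B10.3* peak had 102.8, with 61.8 and 46.6. The strongest peaks of the remaining arms were *pcn-1*, the PCNA sliding clamp gene, with 95.75 in the left arm of IV, *dnj-9*, a gene for a J domain protein, with 93.28 in the left arm of II, and *F57A10.2*, annotated as a major sperm protein, with 79.48 in the right arm of V.

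Peaks lay close to some chromosome ends and far from others. At the left ends of III, IV and V the nearest peaks were 1081, 655 and 265 kb away, and at the right end of V 1943 kb. The outermost pair lay in the *pot-3* gene, annotated with the DNA-binding domain of a telomere protection protein, 2.93 and 3.55 kb from the right end of III, with pooled signals of 31.15 and 36.86. Both summits were in a coding exon and neither had an E2F or CHR motif within 100 bp. The peak nearest the end had rank 5677 in replicate 2 but 224 in replicate 3. The other had 271 and 2316. Next came peaks upstream of *rml-1* (15.5 kb from the same end, signal 33.11), *enee-1* (24.6 kb from the left end of II, 51.64) and *rif-1.1* (32.3 kb from the right end of IV, 42.97). The *enee-1* peak ranked 241 and 107 in the libraries and *rif-1.1* 211 and 285.

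Arm and centre peaks were found in both libraries at similar shares. The IDR call itself used both library lists, so presence in both was favoured in advance and is no independent check of the peaks. A candidate region of both library lists overlapped 172 of 179 arm peaks (96.1%) and 99 of 106 centre peaks (93.4%; exact p = 0.396). A rank difference above 10-fold was seen at 36 of the 172 (20.9%) and at 20 of the 99 (20.2%; interval of the difference -9.73 to 10.2 points; exact p = 1). At the weak end of the arm peaks, the *rpl-15* peak (30.15) had rank 171 in the replicate 2 list but 16833 in that of replicate 3. The *C39E9.12* peak (30.08) had 7703 and 185. Just below the threshold the strongest arm regions were at the splicing factor gene *let-858* (29.92, ranks 387 and 1536) and at *rps-22* (29.88, ranks 201 and 13271). At the border between arm and centre, the *R05H5.3* peak on II was 11 kb on the arm side with a signal of 68.7, and the nearest centre peak, at *Y57E12AL.1* on V, was 85.8 kb inside its border with 49.8.

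**Figure D5:**
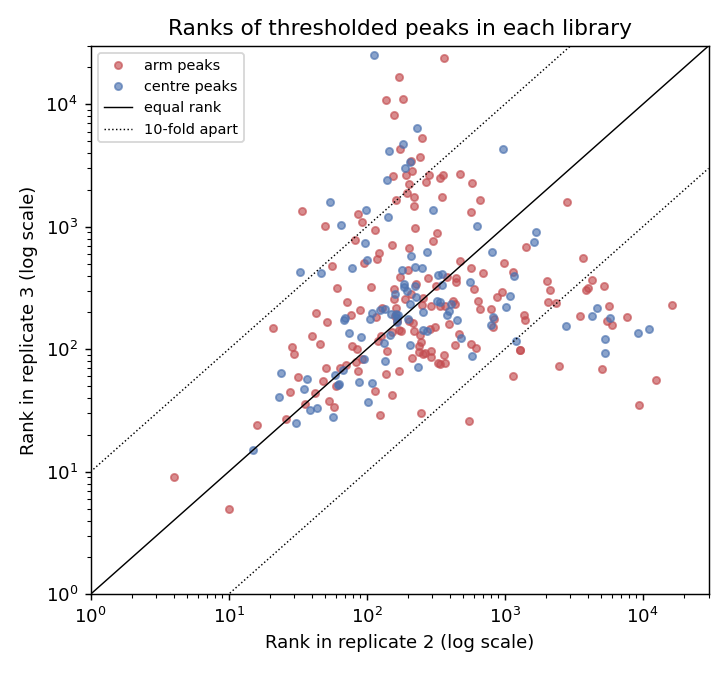
Rank of each thresholded peak in the replicate 2 and replicate 3 candidate lists on log scales, for the 172 arm and 99 centre peaks with a region in both lists; dotted lines mark a 10-fold difference. The 36 arm and 20 centre peaks outside the dotted lines form similar shares, 20.9% and 20.2%.

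The bound share of genes was close in arms and centres. Bound genes are those whose start had a thresholded summit no more than 500 bp away, which held for 2.17% of the protein-coding genes of these chromosomes. In arms 199 of 8930 genes were bound (2.23%, interval 1.93% to 2.56%) and in centres 113 of 5434 (2.08%, interval 1.72% to 2.49%; interval of the difference -0.355 to 0.626 points; Fisher's exact p = 0.595). Among genes with a candidate region near the start, where 6.37% were bound in all, the shares were 6.68% and 5.90% (exact p = 0.281). By zone, 79 of 4898 genes were bound in the outer 20% at each end (1.61%) and 233 of 9466 in the rest (2.46%; exact p = 8.7e-04, not adjusted). On II alone the arm genes were bound more often, at 2.94% against 1.69% (exact p = 0.023).

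Few arm genes of the large gene families were bound, beside 2.23% of all arm genes. A candidate region lay near the start of 22.6% of chemoreceptor and 26.2% of F-box genes in arms, beside 33.4% of all arm genes. No family was tested against the shares of all arm genes. None of 940 chemoreceptor genes in arms was bound, nor any of 166 C-type lectin, 61 MATH and BATH domain or 160 nuclear hormone receptor genes. There was also none among 60 cuticle collagen, 44 cytochrome P450, 25 UDP-glucuronosyltransferase and 15 major sperm protein genes named *msp*. These lists are too small for a count of 0 to be set apart from the share of all arm genes. The same holds for the MATH and BATH and nuclear hormone receptor lists, and the C-type lectin list is borderline. The collagen, UDP-glucuronosyltransferase and *msp* genes do not lie mostly in arms, which hold 49.6%, 43.1% and 48.4% of them. Of 282 F-box genes in arms 3 were bound (1.06%), a count too small to be set apart from the 2.23% of all arm genes. Each of the 3 peaks also lay within 500 bp of another gene's start, *fbxc-23* with the chromosomal passenger gene *csc-1*, *fbxb-88* with *tbck-1* and *fbxb-85* with *hex-3*. In centres 1 of 302 chemoreceptor genes, *srh-16*, 1 of 35 C-type lectin genes, *clec-88*, 1 of 7 MATH and BATH genes, *bath-41*, and 2 of 61 collagen genes were bound, again each at a peak near another gene's start. The chemoreceptor, F-box, C-type lectin, MATH and BATH and nuclear receptor families together made up 20.9% of genes in outer arms, 14.5% in inner arms and 7.62% in centres. Among the other genes the bound shares were 2.01% in outer arms (78 of 3875, interval 1.59% to 2.51%), 3.42% in inner arms (118 of 3446, interval 2.84% to 4.09%) and 2.19% in centres (110 of 5020, interval 1.80% to 2.64%), a grouping chosen after the values were seen and given without a test.

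Genes of growth and division were bound on both sides of the border. The background for these lists is the bound share of all genes, 2.23% in arms and 2.08% in centres. A candidate region lay near the start of 81.8% of the arm replication genes, beside 33.4% of all arm genes. Of the DNA replication list 7 of 22 genes in arms (31.8%) and 3 of 8 in centres (37.5%) were bound. The arm members were *pcn-1*, the helicase genes *mcm-2* (signal 89.3), *mcm-3* (43.4) and *mcm-7* (40.2), the topoisomerase gene *top-2* (88.7), the polymerase alpha gene *pola-1* (35.5) and the origin recognition gene *orc-1* (34.7), all with an E2F motif. The *orc-1* peak had no candidate region in replicate 3, and those of *top-2*, *mcm-3*, *orc-1* and *pola-1* also lie within 500 bp of another gene's start. Of cell cycle and mitosis genes 5 of 21 in arms (23.8%) and 7 of 22 in centres (31.8%) were bound. In arms these were *knl-3*, the kinetochore gene *hcp-1* (85.2), *csc-1* (73.7), the cyclin gene *cyb-3* (60.7) and the spindle checkpoint gene *bub-3* (40.6), and the *csc-1* and *bub-3* peaks also lie near another gene's start. The list shares are descriptions of small counts, drawn up with earlier results of these data known.

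Ribosomal protein genes were bound at 8 of 27 in arms (29.6%) and 4 of 26 in centres (15.4%), beside 2.23% and 2.08% of all genes. A candidate region lay near the start of 81.5% of these arm genes, beside 33.4% of all arm genes. After *rpl-3*, the arm members were *rpl-12* (64.3), *rpl-7A* (54.7), *rps-1* (48.5), *rpl-20* (45.9), *rps-23* (34.0), *rpl-22* (31.4) and *rpl-15*. Library ranks, replicate 2 first, were 83 and 788 for *rpl-12* and 220 and 1479 for *rps-23*. Of all 8 only *rpl-12* and *rpl-22* had an E2F motif. The peaks of 6 also lie within 500 bp of another gene's start, those of *rpl-12* (*lin-54*), *rpl-22* (*ify-1*), *rpl-7A* (*set-21*), *rpl-15* (*K11H12.8*), *rpl-20* (*Y17G9B.5*) and *rps-23* (*dpm-3*). Proteasome genes were bound at 3 of 11 in arms and at 1 of 12 in centres. The arm members were *rpn-11* (54.3, ranks 1150 and 60, replicate 2 first), *pas-6* (36.3, ranks 316 and 328) and *rpn-9* (33.3, ranks 577 and 2278). The *rpn-9* peak is also near the start of *T06D8.9*. Of mitochondrial ribosomal protein genes 1 of 30 in arms was bound, *mrps-35* (35.7, ranks 3682 and 558), at a peak also near *sws-1*, and 0 of 25 in centres.

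Genes of germline RNA regulation and of the DREAM complex itself were also among the arm targets. The bound share of all genes was 2.23% in arms and 2.08% in centres. The germline RNA-binding list had 5 of 14 arm genes bound, *mex-5* (85.6), *mex-1* (80.3), *pie-1* (59.5), *spn-4* (41.5) and *puf-3* (41.1), which regulate maternal messages in oocytes and early embryos, and 4 of 15 in centres. The *mex-5* peak is nearest to the start of *rec-8*, and the *spn-4* peak also lies within 500 bp of the start of *spe-39*. The *mex-1* peak had library ranks of 34 and 1340, and the *pie-1* peak, at a transgene part, 86 and 1268. Of the DREAM and synMuv B list 3 of 8 arm genes were bound, the E2F gene *efl-1* (74.4, ranks 173 and 66), the CHR-binding subunit gene *lin-54* (64.3, ranks 83 and 788) and the heterochromatin protein gene *hpl-2* (40.8), which had no candidate region in replicate 2. The *hpl-2* summit lay in a coding exon, 399 bp past the start. A weaker peak near *hpl-2* (39.24) was also in a coding exon and without a candidate region in replicate 2. Neither of these peaks had an E2F motif within 100 bp. The *lin-54* peak is the same as that of *rpl-12*, whose start is nearer, and is counted in both lists. In centres *lin-9* was bound, 1 of 7.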

How the data were processed

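Candidate regions and IDR-thresholded peaks were deposited as lists by the authors, on builds ce10 and ce11, with a summit and a signal per region and, by column order, a −log10 q-value. Per the text deposited with the samples, candidates were called per library and on pooled alignments with a control alignment, and the thresholded list came from the pooled and both library lists. Not given in the sources used here are the aligner, the caller and the IDR threshold. Depth is unknown.

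Each thresholded peak on ce11 was identical to a pooled candidate. Chromosome lengths and sequence came from RefSeq WBcel235, and gene starts (the 5′ end of each gene) from Ensembl release 115. A summit overlapping several features was assigned to UTR before coding exon, then intron. Arm and centre shares were tested by Fisher's exact test (two-sided) and a Breslow-Day test, with Benjamini-Hochberg adjustment over 14 tests. These treat regions and genes as independent and do not measure the spread between worm populations. The labels number the libraries as biological replicates. In a single library, the 396 highest-ranked regions of its whole list stood for peaks. Functions were checked on simulated data. All 16 gene lists, the members and the tests were chosen with earlier results of these data known; 5 list names did not match the annotation. Named genes were nearest to the 10 strongest arm peaks, the strongest peak of each arm and centre, the 5 outermost arm peaks, the regions next to the IDR threshold and bound list members in arms; others, such as centre members and border peaks, were chosen after their values were seen. Alternatives varied the boundaries, distances, motif windows, libraries, chromosomes, build and the peaks kept. Software was scipy 1.17.1 and statsmodels 0.14.6 for tests, pandas 2.3.3 and numpy 2.4.6 for tables and matplotlib 3.10.9 for plots, under Python 3.11.15. The sequence at the strongest peak of the right arm of II is not reported here.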

Additional observations from a re-analysis of the deposited data

How the results depend on the processing

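Differences below are arms minus centres in percentage points unless stated otherwise. With the outer 25% at each end as arms, the thresholded share differed by -0.362 (exact p = 0.0361), the share near starts by -0.782 and the bound share of genes by -0.529 (exact p = 0.0331). With the outer 20% these were -0.657, -1.54 and -0.849, each past the threshold, whereas by the main borders the latter 2 had the opposite sign. On chromosome II alone the same 3 differences were 0.574, 2.97 and 1.25, the last 2 past the threshold. The share near starts was -0.0762 on III and -1.14 on IV, and the bound share of genes -0.325 on IV and -0.139 on V, none past it. With 1 library at a time, the ranges were -0.249 to 0.115 for the thresholded share and -0.126 to 0.28 for the bound share of genes, so both changed sign with the library. The log2 difference in median signal ranged from -0.05 to 0.00.

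The E2F difference was negative throughout, but its unadjusted p missed 0.05 with the outer 25% (-6.73), with the outer 20% (-7.82), near starts (-8.25), without the transgene parts (-11.8), on II (-14.6), III (-21.7), IV (-9.45) and V (-8.77), and with 1 library at a time (-8.01 to -6.32). With a motif window of 50 bp on each side the E2F difference was -13.4 (exact p = 0.0365). With 200 bp it was -14.1 (exact p = 0.0241), neither adjusted. The CHR difference was -6.46 with a window of 200 bp and ranged from -0.367 to 9.78 with 1 library at a time. Left minus right arm was -0.423 with the outer 20%, -0.23 on IV and 0.265 on V, and ranged from -0.479 to -0.377 with 1 library at a time, none past the threshold. It was past the threshold with the outer 25% (-0.753), on II (-1.34), on III (-1.09) and without the transgene parts (-0.445). The outer 20% against the rest missed it on II (-0.508) and V (-0.46) and away from starts (-0.102), and ranged from -0.738 to -0.284 with 1 library at a time. The cause of these changes was not tested, and single chromosomes and libraries hold fewer peaks. The start-proximal share of candidates stayed past the threshold in all 4 of its alternatives, from -5.66 to -1.49. None of these adjusted for the lower density of gene starts in arms. Alternatives for the left against right, outer 20% and start-proximal comparisons, and most of those for E2F, were chosen after seeing the data. No paired analysis was possible because both libraries belong to 1 group. Read depth is unknown, so how far it limits the weaker peaks cannot be stated.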
